A study of Mus musculus with 30 samples.

Results

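The interferon-induced genes described here are 39 genes listed in 3 sets: 11 gamma-type GTPases (the guanylate-binding proteins Gbp2, Gbp3, Gbp4, Gbp6, Gbp7, Gbp8 and Gbp9 and the immunity-related GTPases Irgm1, Irgm2, Igtp and Iigp1), 5 interferon transcription factors (Stat2, Irf1, Irf7, Irf8 and Irf9) and 23 type I antiviral genes. A gene was represented by the probe set that carries its symbol alone, and by the one with the highest mean log2 expression over all 30 arrays where it had several. This gave 36 genes, of 22180 genes with such a probe set on the array: 10 GTPases, 5 transcription factors and 21 antiviral genes. Gbp2 shares its probe set with Gbp2b and Oas1a with Oas1g, so neither was measured on its own, and Ifi44 was not analysed here. The Gbp, Ifit, Oas, Irgm and Trim30 families hold close relatives, and the share of a signal that comes from a relative cannot be told from these values. Only Gbp6 stayed below the level of 16 (4 log2 units) that the study asks for, so 35 of 36 genes could pass every criterion.

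Arrays were run on gonadal white adipose tissue (gWAT), a visceral depot, from wild type male C57BL6/J mice that were 35 weeks old, with 6 arrays in each of 5 groups. Formerly obese-HFD mice had eaten a diet with 58% of its energy from fat (HFD) over 20 weeks, a control diet with 10.5% over the next 7 weeks, and HFD again over the last 48 h. Formerly obese mice had the same 20 and 7 weeks without the last 48 h, and obese mice stayed on HFD for 27 weeks. Lean-HFD mice had control diet for 27 weeks followed by their first 48 h of HFD, and lean mice had control diet throughout. Obese, formerly obese and lean mice therefore differed in total weeks of HFD as well as in weight history, and no transgene was used. Formerly obese-HFD and formerly obese mice, like lean-HFD and lean mice, differed in diet only over the last 48 h. The adipocyte genes Adipoq, Plin1, Cidec, Lep, Fabp4 and Pparg had group means of at least 10.2 log2 units in all 5 groups.

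Interferons are cytokines that switch on a large set of defence genes. Interferon gamma, made mainly by T cells and natural killer (NK) cells, acts through gamma-activated sites in DNA and induces Irf1, the guanylate-binding proteins and immunity-related GTPases, which attack the membranes of intracellular pathogens. Type I interferons activate a complex that holds Stat2 and Irf9 and binds interferon-stimulated response elements in front of antiviral genes such as Ifit1, Isg15 and Rsad2. The response elements overlap in use, so many genes answer to both kinds of interferon. In adipose tissue, macrophages, lymphocytes and adipocytes can all express these genes, and in whole tissue a change in the number of cells of one type cannot be told apart from a change in RNA per cell.

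RefSeq promoter windows (250 bases before to 50 bases after the start, build GRCm38.p6) were matched for 24 of the 36 genes, 30 windows in all. The core of the interferon-stimulated response element (GAAA, any 2 bases, GAAA, on either strand) was found in 5 of 6 windows of the GTPases (83.3%), in 1 of 8 of the transcription factors (12.5%) and in 10 of 16 of the antiviral genes (62.5%), against 3.44% of all 32851 windows. The gamma-activated site (TTCNNNGAA, the same on both strands) was found in 3 of 6 windows of the GTPases, 2 of 8 of the transcription factors and 3 of 16 of the antiviral genes (18.8%), against 8.3% of all windows. The 120 bases before the start follow for the 5 GTPases with a window and for 3 antiviral genes, because the 2 sets are contrasted across the groups, and for Irf1 and Irf8, which carry the gamma-activated site alone (for Irf8 from 190 to 71 bases before the start). Capitals mark the matches, and matches that touch or overlap form 1 longer run.
Igtp (chr11:58199436-58199555, plus strand): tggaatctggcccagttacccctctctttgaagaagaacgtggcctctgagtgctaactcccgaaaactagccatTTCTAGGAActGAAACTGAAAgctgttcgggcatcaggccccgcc
Irgm2 (chr11:58214857-58214976, plus strand): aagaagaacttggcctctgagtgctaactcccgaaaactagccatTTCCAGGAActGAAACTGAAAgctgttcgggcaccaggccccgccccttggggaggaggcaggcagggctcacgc
Irgm1 (chr11:48871421-48871540, minus strand): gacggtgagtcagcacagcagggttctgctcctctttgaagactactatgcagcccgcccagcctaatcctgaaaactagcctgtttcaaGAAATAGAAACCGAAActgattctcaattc
Gbp7 (chr3:142530216-142530335, plus strand): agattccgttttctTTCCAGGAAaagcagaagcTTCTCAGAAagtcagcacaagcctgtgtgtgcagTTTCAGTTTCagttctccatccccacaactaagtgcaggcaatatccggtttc
Gbp3 (chr3:142559924-142560043, plus strand): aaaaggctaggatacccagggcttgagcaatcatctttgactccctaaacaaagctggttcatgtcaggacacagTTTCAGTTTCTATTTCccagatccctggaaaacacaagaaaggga
Irf1 (chr11:53769894-53770013, plus strand): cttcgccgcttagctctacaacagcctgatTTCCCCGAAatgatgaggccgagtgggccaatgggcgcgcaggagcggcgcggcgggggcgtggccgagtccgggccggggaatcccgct
Irf8 (chr8:120736168-120736287, plus strand): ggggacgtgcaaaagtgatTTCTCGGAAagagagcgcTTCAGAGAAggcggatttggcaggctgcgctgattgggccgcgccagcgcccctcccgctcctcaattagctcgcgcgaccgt
Ifit1 (chr19:34640769-34640888, plus strand): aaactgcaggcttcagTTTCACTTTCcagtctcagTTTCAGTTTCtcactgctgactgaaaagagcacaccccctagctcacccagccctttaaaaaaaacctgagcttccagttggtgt
Isg15 (chr4:156200819-156200938, minus strand): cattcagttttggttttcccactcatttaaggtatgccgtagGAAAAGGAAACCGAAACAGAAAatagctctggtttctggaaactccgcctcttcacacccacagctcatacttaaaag
Rsad2 (chr12:26456453-26456572, minus strand): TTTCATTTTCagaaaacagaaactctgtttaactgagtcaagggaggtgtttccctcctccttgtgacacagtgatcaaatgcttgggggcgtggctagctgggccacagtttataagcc

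Igtp and Irgm2, which lie next to each other on chromosome 11, had the same arrangement. The first base of a gamma-activated site lay 11 bases upstream of the first base of the response element. These first bases lay at 45 and 34 bases before the start of Igtp and at 75 and 64 bases before the start of Irgm2. Irgm1, elsewhere on chromosome 11, had 2 overlapping response elements at 30 and 24 bases and no gamma-activated site. Gbp7 had 1 response element at 53 bases and 2 gamma-activated sites at 106 and 87 bases, and its neighbour Gbp3 on chromosome 3 had 2 overlapping response elements at 45 and 39 bases. The stretches of Ifit1, Isg15 and Rsad2 held 2, 3 and 1 response elements and no gamma-activated site. Such matches describe the letters of these windows and say nothing about binding.

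The medians of the 30 arrays ran from 4.85 to 4.97 log2 units, and correlations between arrays ran from 0.953 to 0.984. All differences are in log2 units with the standard error (SE) of the limma fit, p-values are adjusted over all 41345 probe sets, and a gene is said to have risen or fallen when its adjusted p was under 0.10, its fold over 1.3 and its level over 16, the thresholds of the study. Where 3 values are given for a group they are its lowest, median and highest array. Levels of different genes come from different probes and were not set against each other.

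The GTPases and the antiviral genes were set side by side over the 5 groups. To describe each set, the deviation of each gene from its own mean over the 30 arrays was averaged over the set, array by array. The GTPases averaged 0.41 ± 0.54 in formerly obese-HFD mice, 0.11 ± 0.13 in formerly obese, -0.17 ± 0.22 in obese, -0.08 ± 0.14 in lean-HFD and -0.26 ± 0.18 in lean mice (mean ± SD, n = 6 arrays). The antiviral genes averaged 0.13 ± 0.37 in formerly obese-HFD mice, 0.09 ± 0.18 in formerly obese, 0.02 ± 0.13 in obese, -0.12 ± 0.19 in lean-HFD and -0.12 ± 0.15 in lean mice. Both sets had their highest mean in formerly obese-HFD mice, then in formerly obese mice, and low means in lean mice. The group means spanned a wider range for the GTPases. Medians of the same 3 groups kept this order for the GTPases, at 0.29, 0.10 and -0.34. For the antiviral genes the median was -0.01 in formerly obese-HFD mice, below 0.06 in formerly obese and 0.03 in obese mice. Within single arrays, the GTPase mean minus the antiviral mean was 0.28 ± 0.19 in formerly obese-HFD mice (5 of 6 arrays above 0) and -0.19 ± 0.15 in obese mice (0 of 6 above 0). It was -0.14 ± 0.07 in lean mice (0 of 6 above 0), 0.02 ± 0.15 in formerly obese and 0.04 ± 0.14 in lean-HFD mice. These sums over chosen genes are a description and were not tested.

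**Figure D1:**
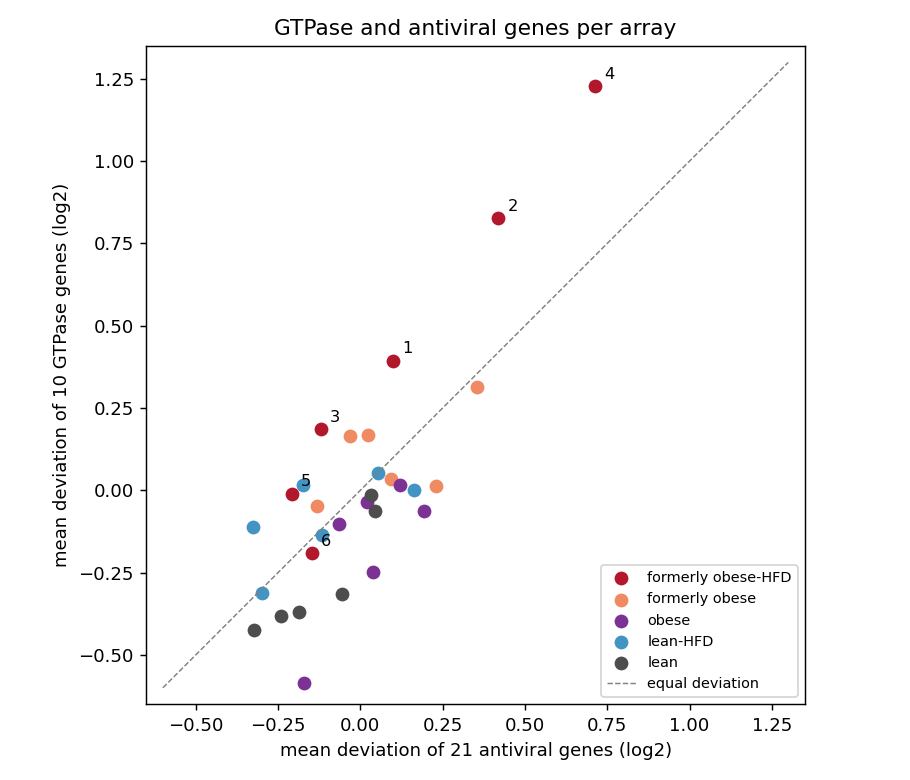
Each point is 1 array, with the mean deviation of the 21 antiviral genes on the x axis and of the 10 GTPases on the y axis (log2 units from each gene's mean over all 30 arrays), and digits give the replicate number of the formerly obese-HFD arrays. Arrays 4 and 2 of that group lie apart at 1.23 and 0.83 for the GTPases, and all 6 obese and all 6 lean arrays lie below the dashed line of equal deviation.

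The formerly obese-HFD mice differed widely among themselves. Their 6 arrays, replicates 1 to 6, had GTPase means of 0.39, 0.83, 0.19, 1.23, -0.01 and -0.19 and antiviral means of 0.10, 0.42, -0.12, 0.71, -0.21 and -0.15. Array 4 was the highest of all 30 arrays for 25 of the 36 genes, 15 of them antiviral, and array 2 was the highest for 6 more. These counts have no share over all probe sets beside them. They do not show whether array 4 was high for these genes in particular. The spread within formerly obese-HFD mice was the widest of the 5 groups for 29 of 36 genes (80.6%), among them all 10 GTPases, against 30.3% of the 29942 probe sets over the level. The median SD of the 36 genes was 0.45 in formerly obese-HFD mice and 0.22 in formerly obese, 0.22 in obese, 0.27 in lean-HFD and 0.22 in lean mice. Markers of NK cells, T cells and macrophages varied with the same arrays. The mean deviation of 6 NK cell markers was 0.64, 0.93, 0.07, 0.57, -0.36 and -0.31 on formerly obese-HFD arrays 1 to 6. That of 5 T cell markers was 0.90, 1.38, -0.17, 0.20, -0.20 and -0.40, and that of 6 macrophage markers 0.70, 0.86, -0.44, 0.42, -0.45 and -0.85. Every one of these markers had a mean above 4 log2 units in every group, the lowest being Klrb1c (group means 4.05 to 4.22), Cd4 (4.23 to 4.69) and Cd8a (4.48 to 4.70). Arrays 1, 2 and 4 were thus the higher ones for the GTPases and for these 3 marker sets. On the same arrays 1 to 6 the 5 B cell markers averaged 1.105, 0.539, -0.023, -0.13, -0.574 and -0.53. Array 4 lay below array 3 for the B cell markers. The part of these cells in the interferon gene levels was not tested.

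**Figure D2:**
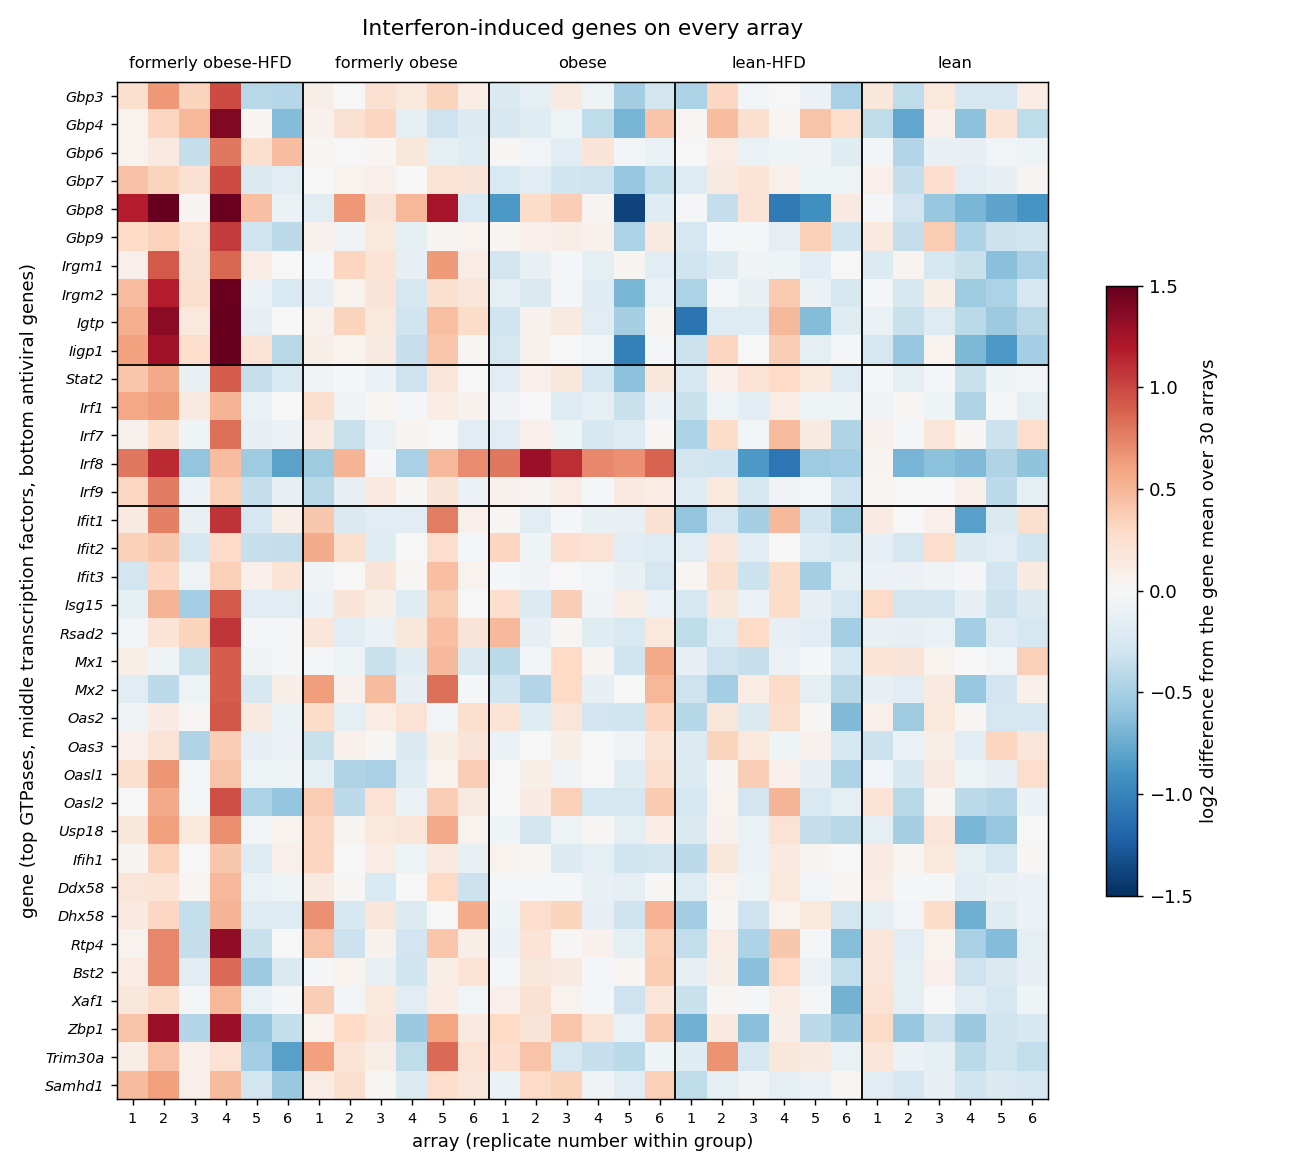
Rows are the 36 genes and columns the 30 arrays, grouped by condition with replicate numbers below, and colour is the log2 difference from the gene's mean over all arrays (red above, blue below, limits at 1.5). Formerly obese-HFD arrays 4 and 2 are red in most rows, Irf8 is red on all 6 obese arrays, and most GTPase rows of obese array 5 are blue.

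A history of obesity was addressed by setting formerly obese against lean mice, formerly obese-HFD against lean-HFD mice, and both pairs together in a fit of the 24 arrays. Averaged over both diets, Gbp8 was 2.03-fold and Irgm1 1.41-fold higher in mice that had been obese, and both rose. Gbp8 is a guanylate-binding protein of the chromosome 5 cluster, and Irgm1 is a regulator of the immunity-related GTPases that guards host membranes and takes part in autophagy. These were the only 2 of 36 genes that passed, both up, against 0.184% of all probe sets called up and 0.123% called down. All 10 GTPases, all 5 transcription factors and 20 of 21 antiviral genes were higher, with median differences of 0.37, 0.14 and 0.21, while 47.7% of all probe sets were higher and their median was -0.0063. An unadjusted p under 0.05 was found for 17 of 36 genes, against 10.8% of all probe sets. Beside these genes, 1 of 6 NK cell markers (Gzma) and 1 of 5 conventional dendritic cell markers (Xcr1) rose, and no T cell, B cell or macrophage marker passed. As a set, the conventional dendritic cell markers had a median difference of 0.02 (3 of 5 higher). Plasmacytoid dendritic cell markers had one of 0.10 (6 of 6 higher), and none passed. The median difference was 0.59 for NK cell markers (5 of 6 higher), 0.62 for T cell markers (5 of 5), 0.42 for B cell markers (5 of 5), 0.47 for macrophage markers (5 of 6), -0.16 for adipocyte markers (0 of 6) and -1.52 for hepatocyte transcripts (0 of 6). The NK cell marker score was -0.36 to 0.93 in formerly obese-HFD and 0.003 to 0.43 in formerly obese mice, against -0.34 to -0.06 in lean-HFD and -0.36 to -0.13 in lean mice, and the part of these transcripts in the interferon genes was not tested.

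Gbp8 measured 5.31, 6.23 and 7.17 in formerly obese-HFD mice, 5.19, 5.75 and 6.64 in formerly obese, 4.02, 5.34 and 5.78 in obese, 4.35, 5.22 and 5.61 in lean-HFD and 4.53, 4.79 and 5.38 in lean mice. Both groups with a history of obesity overlapped with their counterparts, although all 6 arrays lay above the mean of the group they were set against in each pair. The difference was 1.02 ± 0.22 over both diets (adjusted p = 0.0621), 1.14 ± 0.35 between formerly obese-HFD and lean-HFD mice (unadjusted p = 0.00597, adjusted p = 0.472) and 0.90 ± 0.24 between formerly obese and lean mice (unadjusted p = 0.00217, adjusted p = 0.5).

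Irgm1 measured 6.29, 6.46 and 7.21 in formerly obese-HFD mice, 6.17, 6.45 and 6.94 in formerly obese, 6.01, 6.17 and 6.34 in obese, 6.0, 6.19 and 6.28 in lean-HFD and 5.67, 6.0 and 6.34 in lean mice. Every formerly obese-HFD array lay above every lean-HFD array, which held for 1 of the 36 genes and for 0.186% of all probe sets, whereas formerly obese and lean arrays overlapped. Irgm1 differed by 0.50 ± 0.11 over both diets (adjusted p = 0.0695), by 0.50 ± 0.16 between formerly obese-HFD and lean-HFD mice (unadjusted p = 0.00977, adjusted p = 0.479) and by 0.50 ± 0.14 between formerly obese and lean mice (unadjusted p = 0.00354, adjusted p = 0.5). Neither call stood without formerly obese-HFD arrays 2 and 4, which were chosen because the GTPases were highest on them (Gbp8 0.82, adjusted p = 0.217, Irgm1 0.37, adjusted p = 0.191). Neither stood without the 3 arrays that had a B cell marker score over 1, formerly obese 2 and 5 and formerly obese-HFD 1 (Gbp8 0.84, adjusted p = 0.256, Irgm1 0.45, adjusted p = 0.199). Leaving out 1 array at a time ended the call of Gbp8 in 9 of 24 fits (adjusted p 0.101 to 0.122) and that of Irgm1 in 11 of 24 (adjusted p 0.10 to 0.13).

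Igtp and Irgm2, neighbours that share the arrangement of promoter sites, encode regulators of the same family as Irgm1. Igtp measured 7.43, 7.9 and 9.14 in formerly obese-HFD mice, 7.24, 7.76 and 7.99 in formerly obese, 7.05, 7.48 and 7.68 in obese, 6.45, 7.35 and 8.03 in lean-HFD and 7.0, 7.17 and 7.44 in lean mice. For Irgm2 the values were 8.16, 8.74 and 9.87 in formerly obese-HFD mice, 8.14, 8.51 and 8.63 in formerly obese, 7.7, 8.22 and 8.37 in obese, 7.91, 8.29 and 8.77 in lean-HFD and 7.85, 8.14 and 8.48 in lean mice. The highest arrays of both genes were formerly obese-HFD 4 and 2, and the groups overlapped in each pair. The difference over both diets was 0.70 ± 0.18 for Igtp (unadjusted p = 0.000959, adjusted p = 0.129) and 0.45 ± 0.16 for Irgm2 (unadjusted p = 0.0094, adjusted p = 0.277). Neither passed, and Igtp passed when only probe sets with 1 symbol (adjusted p = 0.0953) or only those over the level (adjusted p = 0.0994) were tested, or when all 30 arrays shared 1 fit (adjusted p = 0.0786).

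Iigp1, an effector GTPase that is loaded onto vacuoles around pathogens, measured 8.02, 8.87 and 10.08 in formerly obese-HFD mice, 8.09, 8.51 and 8.85 in formerly obese, 7.42, 8.41 and 8.5 in obese, 8.11, 8.43 and 8.8 in lean-HFD and 7.57, 7.9 and 8.49 in lean mice. It was higher by 0.54 ± 0.17 over both diets (unadjusted p = 0.00479, adjusted p = 0.22) and did not pass, and the groups overlapped in both pairs. Gbp3, Gbp4, Gbp6, Gbp7 and Gbp9, guanylate-binding proteins of the clusters on chromosomes 3 and 5, differed by 0.17 to 0.29 over both diets, and none passed. Gbp5, which sits beside Gbp7 and was listed among further interferon-induced genes, measured 6.37, 6.55 and 6.78 in formerly obese and 5.85, 6.03 and 6.21 in lean mice. Every formerly obese array of Gbp5 lay above every lean array, as for 0.254% of all probe sets, yet its difference of 0.51 ± 0.09 did not pass (unadjusted p = 7.45e-05, adjusted p = 0.235).

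**Figure D3:**
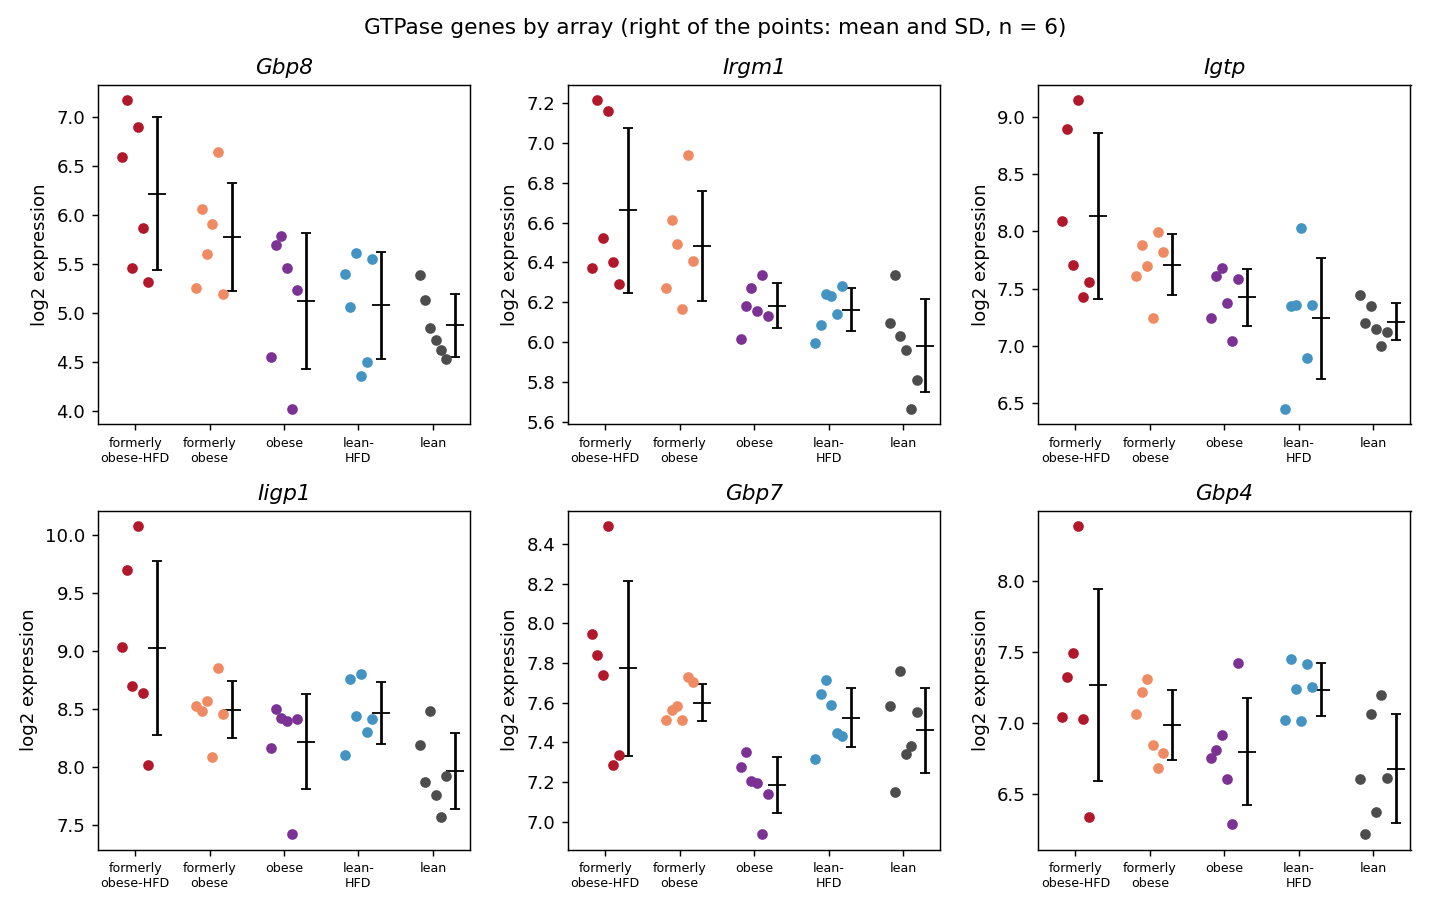
Points are single arrays (y axis, log2 expression, a scale of its own for each gene), and the bar to the right of each group is its mean and SD (n = 6). Gbp8 and Irgm1 are highest in the groups that had been obese, Gbp7 is lowest in obese mice, and the formerly obese-HFD arrays spread widely for all 6 genes.

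Formerly obese mice, on control diet for 7 weeks, were also compared with lean mice alone. Gbp8, Irgm1, Igtp, Iigp1 and Usp18 were 1.41 to 1.87-fold higher in formerly obese mice at a looser threshold, an unadjusted p under 0.01 beside the fold and level already given. This made 5 of 36 genes against 0.74% of all probe sets higher at that threshold. After adjustment 0 of 36 genes passed in limma, as did 0 of all 41345 probe sets (0%), where the smallest adjusted p was 0.127. The paper instead lists 6 genes for this comparison at the same fold and adjusted p, among them Vcam1, Lyz1 and Nmb. The cause of this departure was not tested. An unadjusted p under 0.05 was found for 11 of 36 genes against 6.92% of all probe sets. Of the 36 genes 32 were higher in formerly obese mice, against 47.8% of all probe sets. The median difference was 0.30 for the GTPases (10 of 10 higher), 0.06 for the transcription factors (4 of 5 higher) and 0.24 for the antiviral genes (18 of 21 higher), against -0.0077 for all probe sets. In the same comparison the median was 0.71 for T cell markers (5 of 5 higher), 0.74 for B cell markers (5 of 5), 0.49 for NK cell markers (5 of 6), 0.38 for macrophage markers (5 of 6) and -1.05 for hepatocyte transcripts (0 of 6). None of these markers passed, and their part was not tested. Without formerly obese arrays 2 and 5, which had B cell marker scores of 1.82 and 1.53, the median of the GTPases was 0.28 and 29 of 36 genes were higher.

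The antiviral genes with the smallest p in this comparison were Samhd1, Usp18 and Rsad2. Samhd1, a hydrolase that lowers the nucleotide pool available to viruses, measured 9.46, 10.30 and 10.64 in formerly obese-HFD mice, 9.81, 10.17 and 10.29 in formerly obese, 9.86, 10.14 and 10.39 in obese, 9.64, 9.91 and 10.05 in lean-HFD and 9.73, 9.79 and 9.9 in lean mice. Its difference between formerly obese and lean mice was 0.31 ± 0.09 (unadjusted p = 0.00285, adjusted p = 0.5), a fold under 1.3, with all 6 formerly obese arrays above the lean mean. Usp18, which strips Isg15 from proteins and dampens the type I interferon receptor, measured 6.66, 6.86 and 7.4 in formerly obese-HFD mice, 6.74, 6.87 and 7.26 in formerly obese, 6.42, 6.63 and 6.81 in obese, 6.29, 6.54 and 6.92 in lean-HFD and 6.02, 6.38 and 6.88 in lean mice. It differed by 0.51 ± 0.15 between formerly obese and lean mice (unadjusted p = 0.00615, adjusted p = 0.53) and by 0.46 ± 0.11 over both diets (unadjusted p = 0.000431, adjusted p = 0.101), and the groups overlapped. Rsad2, also called viperin, measured 5.75, 5.89 and 6.88 in formerly obese-HFD mice, 5.64, 5.98 and 6.25 in formerly obese, 5.57, 5.75 and 6.29 in obese, 5.28, 5.62 and 6.08 in lean-HFD and 5.28, 5.64 and 5.7 in lean mice. The values of Rsad2 overlapped in both pairs, with a difference of 0.35 ± 0.11 between formerly obese and lean mice (unadjusted p = 0.00849, adjusted p = 0.556) and of 0.39 ± 0.11 over both diets (unadjusted p = 0.00229, adjusted p = 0.177).

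After 48 h of HFD, formerly obese-HFD mice were compared with lean-HFD mice. Gbp8 was 2.20-fold and Irgm1 1.41-fold higher in formerly obese-HFD mice at an unadjusted p under 0.01, 2 of 36 genes against 0.917% of all probe sets higher at that threshold. In limma 0 of 36 genes passed after adjustment, as did 0% of all probe sets, and 8 of 36 genes against 8.27% of all probe sets had an unadjusted p under 0.05. Of the 36 genes 34 were higher, against 48.2% of all probe sets, with medians of 0.43 for the GTPases, 0.26 for the transcription factors and 0.25 for the antiviral genes. Without formerly obese-HFD arrays 2 and 4, 26 of 36 genes were higher and the medians were 0.14 for the GTPases and 0.05 for the antiviral genes. In the same comparison the median difference was 0.63 for NK cell markers (5 of 6 higher), 0.57 for macrophage markers (6 of 6), 0.46 for T cell markers (5 of 5) and -2.11 for hepatocyte transcripts (0 of 6), none of which passed, and their part was not tested. Igtp differed by 0.89 ± 0.33 (unadjusted p = 0.0175, adjusted p = 0.507), Irf1 by 0.39 ± 0.14 (unadjusted p = 0.0141, adjusted p = 0.5) and Usp18 by 0.41 ± 0.15 (unadjusted p = 0.0188, adjusted p = 0.514). Ifit1, which binds viral RNA that lacks a methylated cap, measured 6.54, 6.9 and 7.87 in formerly obese-HFD mice, 6.57, 6.75 and 7.56 in formerly obese, 6.63, 6.72 and 7.02 in obese, 6.19, 6.39 and 7.28 in lean-HFD and 5.97, 6.83 and 7.03 in lean mice. Formerly obese-HFD and lean-HFD arrays overlapped for Ifit1, with a difference of 0.56 ± 0.24 (unadjusted p = 0.0384, adjusted p = 0.584).

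The state on long HFD was read from obese against lean mice, and Irf8 changed most among the 36 genes. Irf8 is a transcription factor that guides the development of monocytes, macrophages and dendritic cells and that these cells express also without interferon. Irf8 rose 2.66-fold and Zbp1, a sensor of unusual nucleic acid that can trigger cell death, rose 1.43-fold in obese mice. The count of 2 of 36 genes up and 0 down compares with 3.93% of all probe sets up and 2.11% down (6.04% in all). None of the 10 GTPases passed in limma (1 had an unadjusted p under 0.05), 8 were higher, against 45.5% of all probe sets, and their median difference was 0.13, beside 0.14 for the antiviral genes and -0.019 for all probe sets.

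Irf8 measured 6.65, 7.42 and 8.57 in formerly obese-HFD mice, 6.92, 7.68 and 8.16 in formerly obese, 8.14, 8.29 and 8.74 in obese, 6.37, 6.93 and 7.17 in lean-HFD and 6.75, 6.84 and 7.49 in lean mice. Every obese array lay above every lean array, as for 3.09% of all probe sets, and the difference was 1.41 ± 0.14 (adjusted p = 0.000287). Irf8 had 2 probe sets that carry its symbol alone, and these values come from the one with the higher mean. Macrophage markers rose in the same mice, 5 of 6 (Adgre1, Cd68, Csf1r, Mpeg1 and Itgam, Mrc1 being the exception), with mean deviations of 0.24 to 1.12 on the obese and -0.58 to -0.18 on the lean arrays. Of the NK cell markers 2 of 6 rose (Klrd1 and Nkg7), with scores of -0.23 to 0.20 on the obese and -0.36 to -0.13 on the lean arrays. The part of these cells in the Irf8 difference was not tested. Zbp1 measured 6.76, 7.37 and 8.63 in formerly obese-HFD mice, 6.78, 7.5 and 7.94 in formerly obese, 7.24, 7.59 and 7.76 in obese, 6.62, 6.86 and 7.48 in lean-HFD and 6.77, 7.03 and 7.63 in lean mice. Obese and lean arrays overlapped for Zbp1 and the difference was 0.52 ± 0.14 (adjusted p = 0.0513, 6 of 6 obese arrays above the lean mean). Leaving out lean array 2 or 4 or obese array 3 or 6 ended the call of Zbp1 (adjusted p 0.105 to 0.116). Samhd1 was 0.33 ± 0.10 higher in obese mice (adjusted p = 0.0925), a fold under 1.3 that the fold threshold leaves out.

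**Figure D4:**
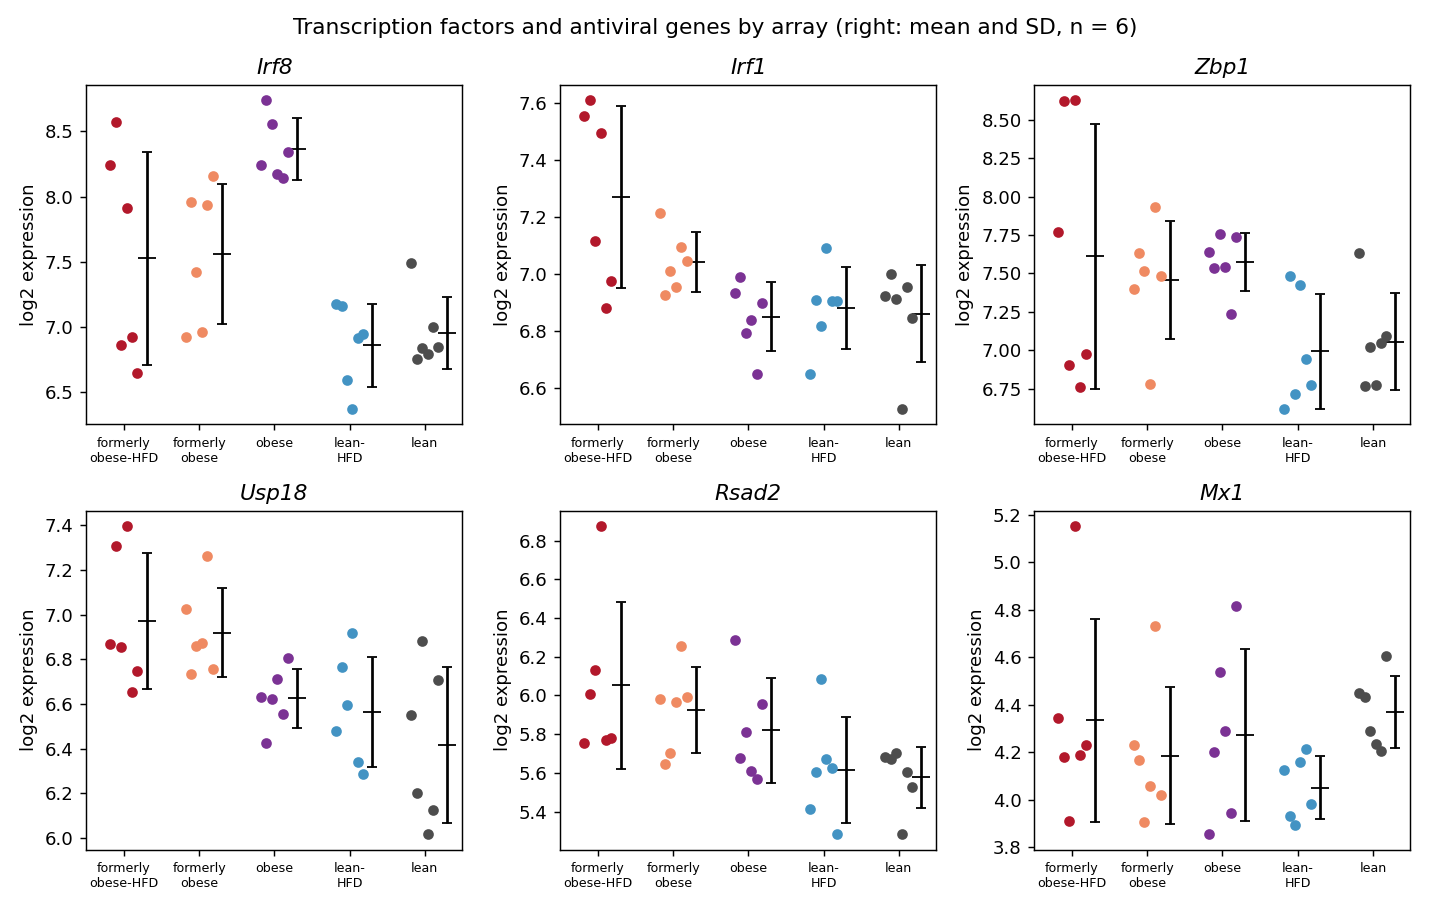
Points are single arrays of 2 transcription factors and 4 antiviral genes (y axis, log2 expression, a scale of its own for each gene), with the mean and SD of each group to its right (n = 6). All 6 obese arrays of Irf8 lie above all lean and lean-HFD arrays, and the highest point of Zbp1, Usp18, Rsad2 and Mx1 is a formerly obese-HFD array.

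The switch to control diet was read from formerly obese against obese mice. Gbp7 rose 1.33-fold and Irf8 fell to a level 1.75-fold lower in formerly obese mice. That is 1 of 36 genes up and 1 down, against 2.02% of all probe sets up and 3.17% down. The 10 GTPases were all higher in formerly obese mice, with a median of 0.28, while 14 of 21 antiviral genes were higher with a median of 0.05, and all probe sets had a median of 0.0135 (53.3% higher). With arrays centred on their median, 8 of 10 GTPases were higher, with a median of 0.25.

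Gbp7, a guanylate-binding protein known in mice to act with the oxidase that makes microbicidal oxygen radicals, measured 7.29, 7.79 and 8.49 in formerly obese-HFD mice, 7.51, 7.57 and 7.73 in formerly obese, 6.94, 7.2 and 7.35 in obese, 7.32, 7.52 and 7.71 in lean-HFD and 7.15, 7.47 and 7.76 in lean mice. Every formerly obese array lay above every obese array, as for 1.44% of all probe sets, and the difference was 0.42 ± 0.08 (adjusted p = 0.0112). Formerly obese and lean mice differed by 0.14 ± 0.10 for Gbp7 (95% interval -0.08 to 0.35, adjusted p = 0.841), and obese and lean mice by -0.28 ± 0.11 (adjusted p = 0.169). The obese arrays were the low ones for Gbp7. Irf8 differed by -0.81 ± 0.22 between formerly obese and obese mice (adjusted p = 0.0545), with 6 of 6 formerly obese arrays below the obese mean and overlapping groups. Leaving out formerly obese array 1, 3 or 4 or obese array 2 or 3 ended the call of Irf8 (adjusted p 0.106 to 0.117). Leaving out obese array 5 brought Gbp7 to 0.37, a fold under 1.3 (adjusted p = 0.0178). Macrophage markers fell with Irf8, 4 of 6 (Adgre1, Cd68, Mpeg1 and Itgam), with mean deviations of -0.26 to 0.57 on the formerly obese and 0.24 to 1.12 on the obese arrays. Mesothelial markers rose with Gbp7, 4 of 6 (Upk3b, Wt1, Lrrn4 and Gpm6a), with scores of -0.07 to 0.41 on the formerly obese and -0.83 to -0.19 on the obese arrays. The part of these cells in both results was not tested. Gbp3, beside Gbp7 on chromosome 3, was 0.34 ± 0.10 higher in formerly obese mice (adjusted p = 0.0833), a fold under 1.3.

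**Figure D5:**
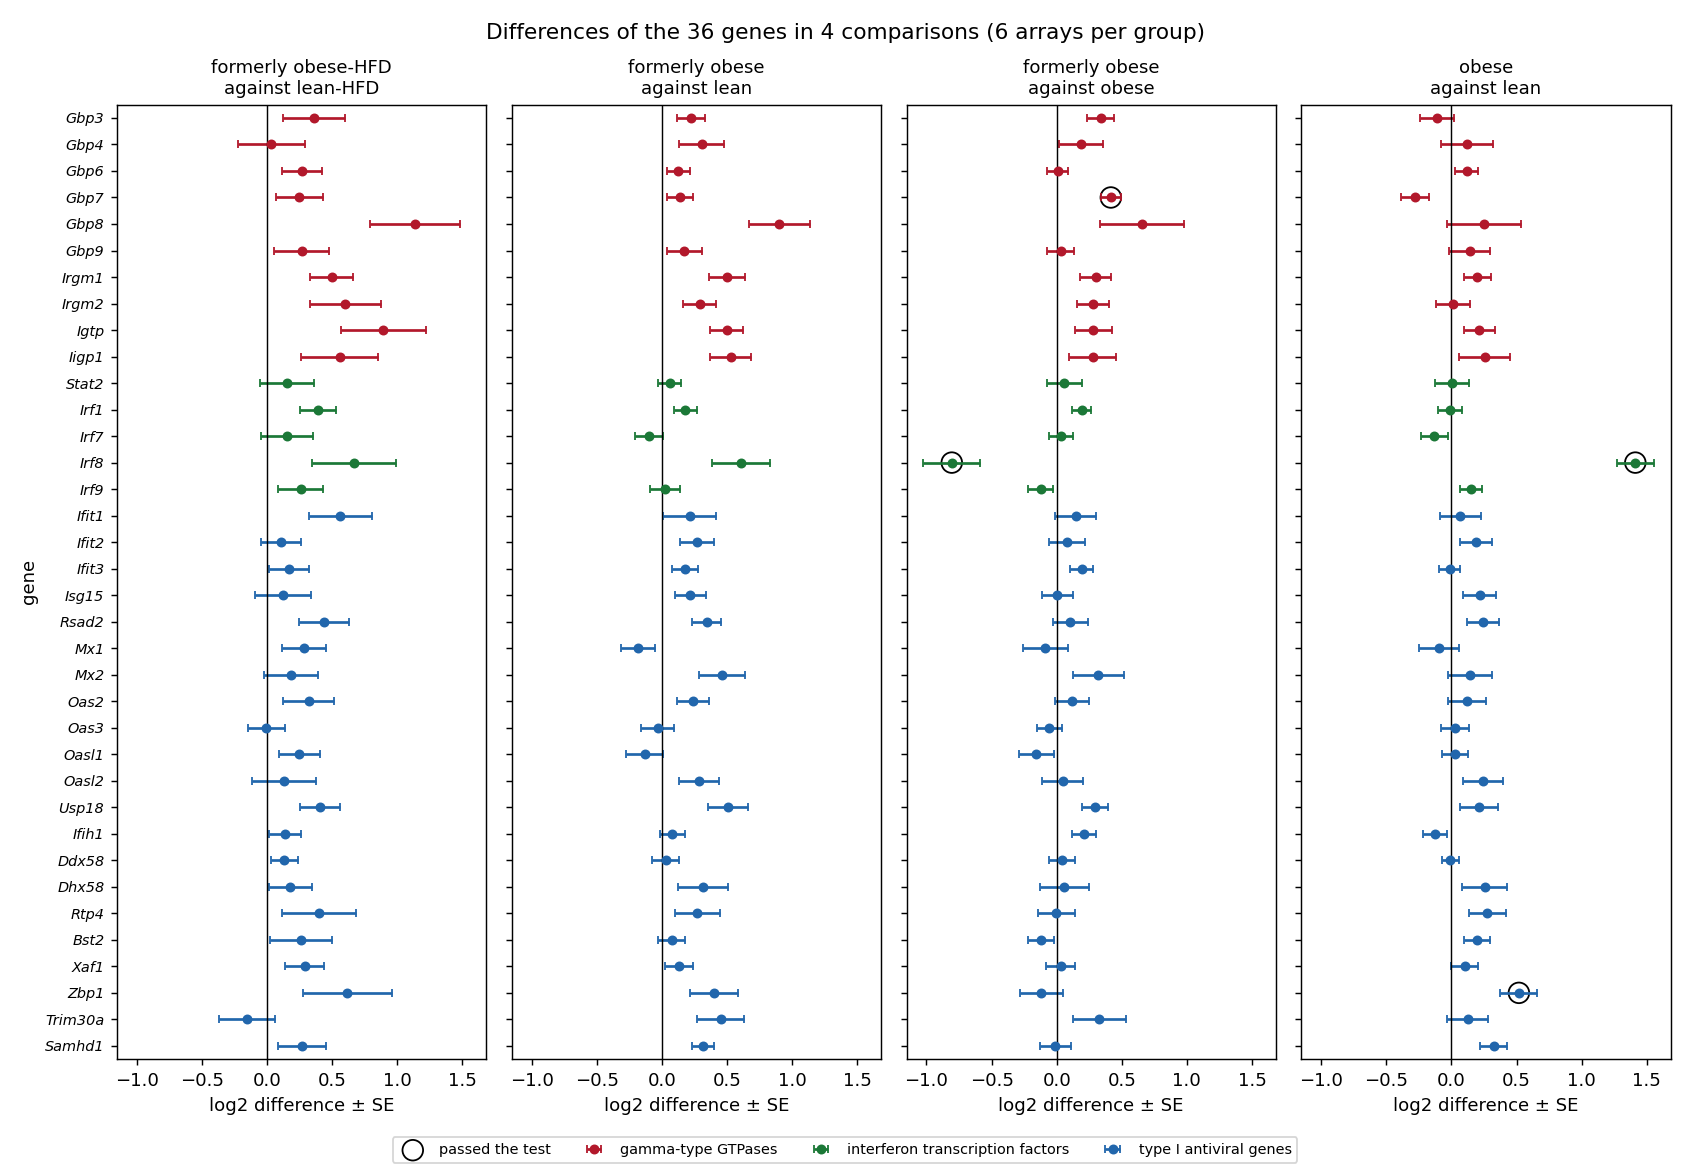
Each point is the log2 difference of 1 gene with its SE from limma (x axis) in 4 comparisons of 6 against 6 arrays, with GTPases in red, transcription factors in green and antiviral genes in blue, and circles mark the genes that passed. The red points lie above 0 in the 3 panels with formerly obese groups, Gbp7 and Irf8 are circled for formerly obese against obese mice, and Irf8 and Zbp1 for obese against lean mice.

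Formerly obese-HFD mice set against the same obese arrays gave 3 genes up. Gbp7 rose by 0.59 ± 0.18 (adjusted p = 0.0617), Irgm1 by 0.48 ± 0.16 (adjusted p = 0.0997) and Irf1 by 0.42 ± 0.13 (adjusted p = 0.0784), and 0 of 36 fell. The 3 genes up compare with 3.9% of all probe sets up and 4.38% down. The GTPases were all higher, with a median of 0.53, beside 0.06 for the antiviral genes (17 of 21 higher) and 52.6% of all probe sets higher, and with arrays centred on their median 10 of 10 GTPases and 11 of 21 antiviral genes were higher. Irf1, an early target of interferon gamma that carries a gamma-activated site in its promoter, measured 6.88, 7.31 and 7.61 in formerly obese-HFD mice, 6.93, 7.03 and 7.22 in formerly obese, 6.65, 6.87 and 6.99 in obese, 6.65, 6.91 and 7.09 in lean-HFD and 6.53, 6.92 and 7.0 in lean mice. Formerly obese-HFD and obese arrays overlapped for all 3 genes, although 6 of 6 formerly obese-HFD arrays lay above the obese mean for each. Leaving out 1 array at a time gave 0 to 6 genes, and without formerly obese-HFD arrays 2 and 4 none of the 3 passed (Gbp7 0.39, Irgm1 0.22 and Irf1 0.28) while Irf8 alone did, as lower. Without formerly obese-HFD array 1, one of the arrays with a B cell score over 1, Gbp7 and Irf1 did not pass (adjusted p = 0.101 and 0.135). Hepatocyte transcripts moved with this comparison, 5 of 6 higher at the thresholds (Alb, Apoa1, Serpina1c, Ttr and Fgb), with mean deviations of -1.59 to 1.42 on the formerly obese-HFD and -2.35 to -0.38 on the obese arrays, and 3 of 6 mesothelial markers passed as higher. Macrophage markers went the other way, with 0 of 6 higher, a median of -0.82 and 1 that passed as lower. NK cell markers (5 of 6 higher, median 0.19) and T cell markers (5 of 5, median 0.30) were higher, and none passed. Elsewhere 1 adipocyte marker passed as lower, 1 epididymis and sperm marker as higher, and 1 plasmacytoid dendritic cell marker in each direction. The part of these transcripts in the interferon gene results was not tested.

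The 48 h of HFD were addressed in lean mice and in formerly obese mice. Among the 36 genes, Gbp4 and Iigp1 were 1.47-fold and 1.42-fold higher in lean-HFD than in lean mice at an unadjusted p under 0.01, and in formerly obese mice no gene reached that threshold. Gbp4 is a guanylate-binding protein of the chromosome 5 cluster. It measured 6.34, 7.18 and 8.38 in formerly obese-HFD mice, 6.68, 6.95 and 7.31 in formerly obese, 6.29, 6.78 and 7.42 in obese, 7.01, 7.24 and 7.45 in lean-HFD and 6.21, 6.61 and 7.2 in lean mice. Lean-HFD and lean arrays overlapped, with a difference of 0.55 ± 0.16 for Gbp4 (unadjusted p = 0.00494, adjusted p = 0.825) and of 0.50 ± 0.16 for Iigp1 (unadjusted p = 0.00834, adjusted p = 0.825), and 6 of 6 lean-HFD arrays lay above the lean mean for both. In limma 0 of 36 genes passed, against 0.00242% of all probe sets, and 3 of 36 against 5.9% of all probe sets had an unadjusted p under 0.05. The third was Mx1, a dynamin-like antiviral GTPase whose allele is defective in C57BL/6 and most other inbred strains, which was lower, at 3.89, 4.05 and 4.22 in lean-HFD mice and 4.21, 4.36 and 4.6 in lean mice, near the level threshold of 4. It differed by -0.32 ± 0.09 (unadjusted p = 0.00388, adjusted p = 0.825), and the groups overlapped. Of the GTPases 9 of 10 were higher in lean-HFD mice (median 0.12), and of the antiviral genes 11 of 21 (median 0.0022), beside 49.8% of all probe sets. Hepatocyte marker scores were -0.64 to 3.97 on the lean-HFD and -1.61 to 2.70 on the lean arrays, and their part was not tested.

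Trim30a, which restrains Toll-like receptor signalling in mice, measured 5.34, 6.24 and 6.6 in formerly obese-HFD mice, 5.77, 6.36 and 7.01 in formerly obese, 5.75, 6.0 and 6.58 in obese, 5.89, 6.18 and 6.82 in lean-HFD and 5.75, 5.93 and 6.33 in lean mice. It was 0.26 ± 0.16 higher in lean-HFD than in lean mice (unadjusted p = 0.117, adjusted p = 0.874), within the overlap of the groups. Stat2 and Irf9, which act together in the type I response, overlapped between all groups and lean mice. Stat2 measured 6.88, 7.38 and 8.13 in formerly obese-HFD mice, 6.91, 7.19 and 7.4 in formerly obese, 6.61, 7.19 and 7.4 in obese, 6.96, 7.34 and 7.52 in lean-HFD and 6.88, 7.17 and 7.21 in lean mice. For Irf9 the arrays gave 5.89, 6.36 and 7.04 in formerly obese-HFD mice, 5.84, 6.22 and 6.45 in formerly obese, 6.24, 6.34 and 6.4 in obese, 5.94, 6.13 and 6.41 in lean-HFD and 5.86, 6.25 and 6.33 in lean mice. Between lean-HFD and lean mice Stat2 differed by 0.15 ± 0.11 (adjusted p = 0.903) and Irf9 by -0.04 ± 0.10 (adjusted p = 0.979).

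In formerly obese-HFD mice set against formerly obese mice, 0 of 36 genes passed in limma, as did 0% of all probe sets, and 0 of 36 had an unadjusted p under 0.05, against 5.34% of all probe sets. All 10 GTPases were higher (median 0.26) and 15 of 21 antiviral genes were (median 0.05), beside 50.1% of all probe sets. Without formerly obese-HFD arrays 2 and 4, 4 of 10 GTPases and 2 of 21 antiviral genes were higher, with medians of -0.012 and -0.155. The smallest p among the GTPases was that of Iigp1, with a difference of 0.53 ± 0.29 (95% interval -0.09 to 1.16, unadjusted p = 0.0897, adjusted p = 0.934). Oasl1, known in mice to hold back the translation of Irf7, had the smallest p of the antiviral genes. It measured 5.22, 5.4 and 5.95 in formerly obese-HFD mice, 4.81, 5.13 and 5.66 in formerly obese, 5.11, 5.29 and 5.53 in obese, 4.83, 5.25 and 5.66 in lean-HFD and 5.05, 5.24 and 5.56 in lean mice, and differed by 0.34 ± 0.17 (unadjusted p = 0.0651, adjusted p = 0.934). Irf7, the factor that amplifies type I interferon production, measured 6.32, 6.45 and 7.27 in formerly obese-HFD mice, 6.11, 6.4 and 6.59 in formerly obese, 6.2, 6.32 and 6.52 in obese, 5.98, 6.49 and 6.92 in lean-HFD and 6.12, 6.49 and 6.71 in lean mice. The groups overlapped for Irf7 and the difference was 0.21 ± 0.15 (adjusted p = 0.942). Mx2 measured 4.81, 5.08 and 6.11 in formerly obese-HFD mice and 5.08, 5.47 and 6.03 in formerly obese mice, and 4.76, 5.14 and 5.7 in obese, 4.69, 4.98 and 5.49 in lean-HFD and 4.64, 5.06 and 5.35 in lean mice. It differed by -0.29 ± 0.22 (adjusted p = 0.942), within the overlap.

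Over both histories, the 48 h of HFD changed 0 of 36 genes in limma, against 0.0121% of all probe sets up and 0.0435% down (0.0556% in all), and 2 of 36 had an unadjusted p under 0.05, against 7.12% of all probe sets. These 2 were Iigp1, higher by 0.52 ± 0.17 (unadjusted p = 0.00673, adjusted p = 0.42) and alone past the looser threshold, which 0.358% of all probe sets passed as higher, and Gbp4, higher by 0.42 ± 0.16 (unadjusted p = 0.0171, adjusted p = 0.56). Whether the effect of HFD depended on history was tested as an interaction, and 0 of 36 genes and 0% of all probe sets passed. Mx1 alone had an unadjusted p under 0.05 (0.47 ± 0.22, unadjusted p = 0.0446, adjusted p = 1), against 4.61% of all probe sets. Its values were 3.91, 4.21 and 5.15 in formerly obese-HFD mice, against 3.91, 4.11 and 4.73 in formerly obese mice, and obese mice had 3.85, 4.24 and 4.81. The interaction of Igtp was 0.40 ± 0.37 (95% interval -0.36 to 1.16) and that of Irgm2 0.31 ± 0.31 (95% interval -0.34 to 0.96), intervals that leave room for effects in either direction.

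Ddx58, the sensor of viral RNA known as RIG-I, measured 7.72, 7.91 and 8.3 in formerly obese-HFD mice, 7.49, 7.82 and 8.11 in formerly obese, 7.67, 7.78 and 7.82 in obese, 7.62, 7.8 and 7.97 in lean-HFD and 7.65, 7.76 and 7.92 in lean mice. All groups overlapped with lean mice for Ddx58, and it passed in no comparison. The 11 antiviral genes not yet described were the RNA sensors Ifih1 and Dhx58, the effectors Ifit2, Ifit3, Isg15, Oas2, Oas3, Oasl2 and Bst2, and Rtp4 and Xaf1. None passed in limma in any of the 10 comparisons (4 of 110 tests had an unadjusted p under 0.05), with differences of -0.16 (Ifit2, the interaction) to 0.40 (Rtp4, formerly obese-HFD against lean-HFD mice) and a smallest adjusted p of 0.193 (Ifih1). Group means of Isg15, the ubiquitin-like protein that Usp18 removes, were 5.64 ± 0.53 in formerly obese-HFD mice, 5.63 ± 0.20 in formerly obese, 5.62 ± 0.22 in obese, 5.52 ± 0.22 in lean-HFD and 5.41 ± 0.22 in lean mice (SD, n = 6). The 2 highest Isg15 arrays were formerly obese-HFD 4 at 6.49 and 2 at 6.07.

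The genes upstream of this response were examined from a list of 37 interferons, receptors and signalling genes, of which 33 were measured. Ifng averaged 4.01 ± 0.18 in formerly obese-HFD mice, 3.95 ± 0.20 in formerly obese, 3.94 ± 0.20 in obese, 3.9 ± 0.14 in lean-HFD and 4.03 ± 0.17 in lean mice, at or near the level threshold of 4. Ifnb1 and Ifna2 had group means of 3.15 to 3.40, below that level. None of these 3 interferon genes passed in any comparison, and at their levels a difference may not be detectable on these arrays. The probe sets of the other measured interferon genes, both type I, had group means above the level threshold. Ifnk lay nearer to it, with group means of 4.69 to 5.18, beside array medians of 4.85 to 4.97. The probe set of Ifna4 had group means of 7.01 to 7.18 and passed in no comparison. Whether its signal came from Ifna4 alone was not tested. Ifnk measured 4.64, 5.25 and 5.58 in formerly obese-HFD mice, 4.86, 5.12 and 5.45 in formerly obese, 4.33, 4.76 and 4.8 in obese, 4.31, 5.21 and 5.73 in lean-HFD and 4.63, 5.1 and 5.72 in lean mice, the obese arrays being low. Between obese and lean mice 2 of 33 signalling genes rose and 0 fell, beside 3.93% of all probe sets up and 2.11% down. These were Tlr7, an endosomal receptor of RNA, by 0.97 ± 0.19 (adjusted p = 0.00801), and Ifngr2, a chain of the interferon gamma receptor, by 0.43 ± 0.10 (adjusted p = 0.0191). Ifngr2 measured 8.35, 8.57 and 8.81 in obese and 8.05, 8.12 and 8.28 in lean mice. Every obese array lay above every lean array, as for 3.09% of all probe sets. Between formerly obese and obese mice 2 of 33 rose, Il18 by 0.46 ± 0.11 and Ifnk by 0.44 ± 0.11 (adjusted p = 0.045), and 1 fell, Ifngr2, by 0.50 ± 0.12 (adjusted p = 0.0305), beside 2.02% of all probe sets up and 3.17% down. Between formerly obese-HFD mice and the same obese arrays these 3 genes passed in the same directions, beside 3.9% of all probe sets up and 4.38% down. In the comparisons without obese mice 0 of 33 passed in limma, with 0 to 6 at an unadjusted p under 0.05 in each, beside 4.61% to 10.8% of all probe sets under 0.05 and at most 0.307% called.

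Of 54 further interferon-induced genes 47 were measured, and 1 rose with a history of obesity over both diets, Psmb9, a subunit of the immunoproteasome, by 0.41 ± 0.10 (adjusted p = 0.0893), 1 of 47 against 0.184% of all probe sets up. Its partner Psmb8 (0.34 ± 0.08, adjusted p = 0.114) and Gbp5 (0.52 ± 0.14, adjusted p = 0.149) did not pass, and 38 of 47 were higher with a median of 0.13. Psmb9 measured 8.73, 9.06 and 9.65 in formerly obese-HFD mice, 8.8, 8.95 and 9.16 in formerly obese, 8.55, 8.81 and 8.96 in obese, 8.32, 8.76 and 8.85 in lean-HFD and 8.46, 8.6 and 8.67 in lean mice. Every formerly obese array of Psmb9 lay above every lean array, as for 0.254% of all probe sets. Between obese and lean mice 4 of 47 rose and 2 fell, beside 3.93% of all probe sets up and 2.11% down. Ubd, a ubiquitin-like protein that both interferon gamma and tumour necrosis factor induce, rose by 3.89 ± 0.41 (adjusted p = 0.000341). It measured 10.66, 10.70 and 10.89 in obese and 5.95, 6.53 and 9.08 in lean mice. Every obese array lay above every lean array, as for 3.09% of all probe sets. Slfn2 rose by 1.08 ± 0.20. Cxcl11, a chemokine that draws T cells, fell by 1.14 ± 0.20 (adjusted p = 0.00564), at 6.38, 7.16 and 7.46 in obese and 7.68, 8.28 and 8.34 in lean mice. C57BL/6 mice are known to carry a Cxcl11 gene that yields no functional protein. Between formerly obese and obese mice 3 of 47 rose (Gbp5 by 0.47 ± 0.09, Cxcl11 by 0.92 ± 0.23 and Ifitm1 by 0.39 ± 0.12) and 1 fell, Ubd, by 3.04 ± 0.44, beside 2.02% of all probe sets up and 3.17% down. Between formerly obese-HFD and obese mice 3 of 47 rose (Cxcl11, Gbp5 and Apol9b) and 1 fell (Ubd), beside 3.9% up and 4.38% down.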

How the data were processed

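RNA from 30 gWAT samples was amplified (Ovation PicoSL WTA V2), biotin-labelled (Encore Biotin Module) and hybridised to Affymetrix Mouse Gene 2.0 ST arrays, 1 array per sample. The deposited values are log2 expression that the authors computed with robust multi-array averaging in Affymetrix Expression Console 1.4.1.46, for 41345 probe sets. Background, quantile scaling and probe summaries were therefore fixed in the deposited values. Quantile scaling forces similar distributions on arrays processed together, and the paper does not state whether all 30 were. Probe sets were named from the platform annotation, and the genome build used by the authors is not given in the sources used here. P-values measure the spread between arrays labelled as replicates of a group, which were taken as separate mice.

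Each pair of groups was fitted with limma 3.58.1 (R 4.3.3) on its own 12 arrays, and diet, history and their interaction on the 24 arrays of the formerly obese and lean pairs, with Benjamini-Hochberg adjustment over all probe sets. The thresholds were those of the study for gWAT (adjusted p under 0.10, fold over 1.3, level over 16), with an unadjusted p under 0.01 as its looser set. Values per array were named for genes that passed anywhere and for the 3 smallest p-values of each set where none did, and up to 4 genes of each further list. Members and lists were chosen with earlier results of these data known. Comparisons that include the same group share its arrays. Promoters were searched with Python 3.11.15. The fits were tested on simulated data. Alternatives were a single fit of all arrays, the replicate number as a block, fewer probe sets, median centring, trended robust moderation, other thresholds, the mean of the probe sets of a gene, and leaving out arrays.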

Additional observations from a re-analysis of the deposited data

Results flagged for a closer look

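Of 180 sets of 6 arrays (36 genes in 5 groups), 14 had a single array whose distance to the next took more of the range of its group than Dixon's critical value for 6 samples, which chance gives in about 1 of 20 sets. In formerly obese-HFD mice array 4 stood above the rest for Rsad2 at 6.88, Mx1 at 5.15, Mx2 at 6.11 and Oas2 at 8.13 log2 units. In obese mice array 5 stood below the rest for Gbp9 at 7.53, Irgm2 at 7.70 and Iigp1 at 7.42. The mean deviation of 5 epididymis and sperm markers was 0.77 on that array and -0.89 to -0.43 on the other obese arrays. Of these markers Defb42 measured 11.16 on it and 3.99 to 4.42 on the others, while Adam7, at 3.87, lay within their range. Arrays of other groups had higher means of these markers, such as lean array 2 at 1.97. The part of such tissue in the interferon gene levels was not tested. Lean-HFD array 4 was high for Ifit1 at 7.28. In lean mice the single arrays were scattered: array 4 was low for Stat2 at 6.88 and Irf1 at 6.53, array 2 low for Gbp6 at 3.13, array 1 high for Irf8 at 7.49 and Isg15 at 5.85, and array 3 high for Ifit2 at 6.11. The interaction test gave no gene of the 36 whose response to 48 h of HFD differed between histories at the thresholds.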

How the results depend on the processing

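No difference of a gene that passed, or that passed the looser threshold, changed sign under these alternatives. Among all 36 genes, median centring turned at most 6 signs in a comparison, each of a difference of 0.0367 or less, and leaving out formerly obese-HFD arrays 2 and 4 turned 21 in formerly obese-HFD against formerly obese mice. Of the 36 genes, the number that passed in formerly obese-HFD against obese mice was 3, and became 8 with all 30 arrays in 1 fit, 6 with only probe sets over the level, 6 with only probe sets of 1 symbol, 1 (Gbp7) with arrays centred on their median and 0 at an adjusted p under 0.05. Without formerly obese-HFD arrays 2 and 4, an exclusion chosen after seeing the data, it was 1 (Irf8, lower). The 2 genes of the history comparison became 4 with all 30 arrays in 1 fit, 4 with only probe sets over the level, 4 with only probe sets of 1 symbol, 0 at an adjusted p under 0.05 and 8 at an unadjusted p under 0.01. They became 0 without formerly obese-HFD arrays 2 and 4 and 0 without the 3 arrays of high B cell marker score, also chosen after seeing the data. In obese against lean mice the 2 genes became 1 with all 30 arrays in 1 fit and 1 at an adjusted p under 0.05, and in formerly obese against obese mice the 2 became 1 at an adjusted p under 0.05. At an unadjusted p under 0.01 the comparisons with 0 genes gave 5 (formerly obese against lean), 2 (lean-HFD against lean), 2 (formerly obese-HFD against lean-HFD) and 1 (48 h of HFD). A narrower set of probe sets means fewer tests in the adjustment, and for the other changes the cause was not tested.

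Leaving out 1 array at a time gave 1 to 3 genes in obese against lean, 1 to 2 in formerly obese against obese, 0 to 6 in formerly obese-HFD against obese and 0 to 6 in the history comparison, and 0 to 0 in the other 6 comparisons. The history call of Gbp8 was lost without formerly obese array 5, lean arrays 5 and 6, lean-HFD arrays 2, 4 and 5, or formerly obese-HFD arrays 1, 2 and 4 (adjusted p 0.101 to 0.122). That of Irgm1 was lost without formerly obese arrays 2, 3, 5 and 6, lean arrays 4, 5 and 6, lean-HFD arrays 2 and 5, or formerly obese-HFD arrays 2 and 4 (0.10 to 0.13). Against obese mice, the formerly obese-HFD calls of Irgm1 (0.116 to 0.175) and Irf1 (0.104 to 0.146) were lost without any 1 of the 6 obese arrays, Irgm1 also without formerly obese-HFD array 2, 3 or 4, and Irf1 without array 1, 2 or 4. That of Gbp7 was lost without obese array 3, 4, 5 or 6 or formerly obese-HFD array 1 (0.10 to 0.115). Igtp, Usp18, Iigp1 and Irf8 passed for history in 4, 5, 1 and 1 of 24 such fits.

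The groups share replicate numbers, but same-numbered arrays did not deviate together (correlations of their deviations from -0.227 to 0.414, over 0.1 for at most 2 of 6 pairs in any comparison). With the replicate number as a block, 2 genes passed in obese against lean, 2 in formerly obese against obese, 2 in formerly obese-HFD against obese (Irgm1 was lost, adjusted p = 0.138) and 2 for history, and 0 elsewhere. Arrays carry no read depth, and their number limits the precision.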
